A study of Mus musculus with 8 samples.

Results

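TFH cells, the CD4 T cells that help B cells in germinal centers, were compared with naïve CD4 T cells, both from immunized mice. Whether the cell types of a day came from the same animals is not given. The comparison rests on 4 of the 8 one-color Agilent arrays of the series, 1 for each of the 2 cell types at d12 and at d25 after subcutaneous injection of KLH in alum, and it was chosen by cell type and tissue, not by any measured value. Both cell types came from pooled peripheral lymph nodes (pLN) of the strain B6.Cg-Foxp3<tm1Mal>, in which Foxp3 expressing cells are marked by GFP, with 8 to 15 mice per pool, aged 8 to 14 weeks, and 25 ng of RNA per array. Other passages of the methods give smaller pools and a lower age range. Females and males were used in the study, but the sexes within a pool are not given. Naïve cells were sorted as B220-CD4+GFP-PD1-GL7- and TFH cells as B220-CD4+GFP-PD1hiGL7+, so that every animal, including those that gave the naïve cells, had been immunized. No marker of memory such as CD44 was part of the naïve gate. The remaining 4 arrays hold Treg and TFR cells, their GFP+ counterparts, and entered the model to estimate the spread and for 1 contrast. Unlike TFH cells, TFR cells were sorted with and without GL7 (GL7+/-). Since a cell type at a given day is a single array, d12 and d25 served as the 2 replicates, and p values measure the spread between these pools and days.

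Naïve CD4 T cells circulate between blood and lymphoid organs and enter the T cell zone with the help of CCR7. After contact with antigen some of them induce Bcl6, exchange CCR7 for CXCR5, and move into the follicle, where they deliver CD40 ligand, IL-4 and IL-21 to B cells and remain under repeated stimulation by antigen. They are known for high levels of PD1 and ICOS, whereas Blimp-1, the opponent of Bcl6, marks other effector cells.

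Levels are the normalized intensities deposited by the authors in relative units (RU), quantile normalized, with 1500 as the 75th percentile and 20 as the lowest value. They compare 1 probe between arrays and not different genes with each other, and because every array was brought to the same distribution, a change in the total RNA per cell cannot be seen. Likewise, fewer cells of a kind and less RNA per cell cannot be told apart in sorted bulk samples. The probe with the highest mean level stood for its gene, which was tested if that probe exceeded background well on both TFH arrays or on both naïve arrays, as 15244 of 29924 gene names were. Differences are TFH minus naïve on the log2 scale, given as estimate ± standard error from limma (n = 2 arrays of each cell type), and a call means an adjusted p (Benjamini-Hochberg) below 0.05. If 1 cell type had an array on which the probe was not well above background, the fold is given as a lower bound. This holds for 62 named calls, in 11 of which 1 of the 2 arrays of the dimmer cell type was well above background.

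In TFH cells 3317 genes (21.8% of those tested) were called higher and 4005 (26.3%) lower, together 48%, and 8604 had an unadjusted p below 0.05. A difference of at least 1 on the log2 scale was reached by 1752 of the higher genes (11.5%) and 1254 of the lower genes (8.23%). The balance of calls turned with the 4 arrays of both cell types alone, where 51.9% of calls were higher, and with a required difference of at least 1, where 58.3% were, compared to 45.3% here. Differences of opposite sign and of at least 1 at d12 and d25 were seen in 40 genes, which were not called. Fits without the naïve array of d12 or of d25 called 4414 and 4760 genes, and of the 277 calls named in the text 189 held under every alternative to the processing that gave a value, of 21 run. The root mean square log2 difference between the cell types was 1.22 at d12 and 1.20 at d25, compared to 0.543 between the days in TFH and 0.407 in naïve cells. The filter let in 1283 genes only through TFH cells and 336 only through naïve cells. Before normalization the 75th percentile of the signals was 514 and 482 on the naïve arrays and 773 and 801 on the TFH arrays, and the part of this difference in the results was not tested.

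**Figure D1:**
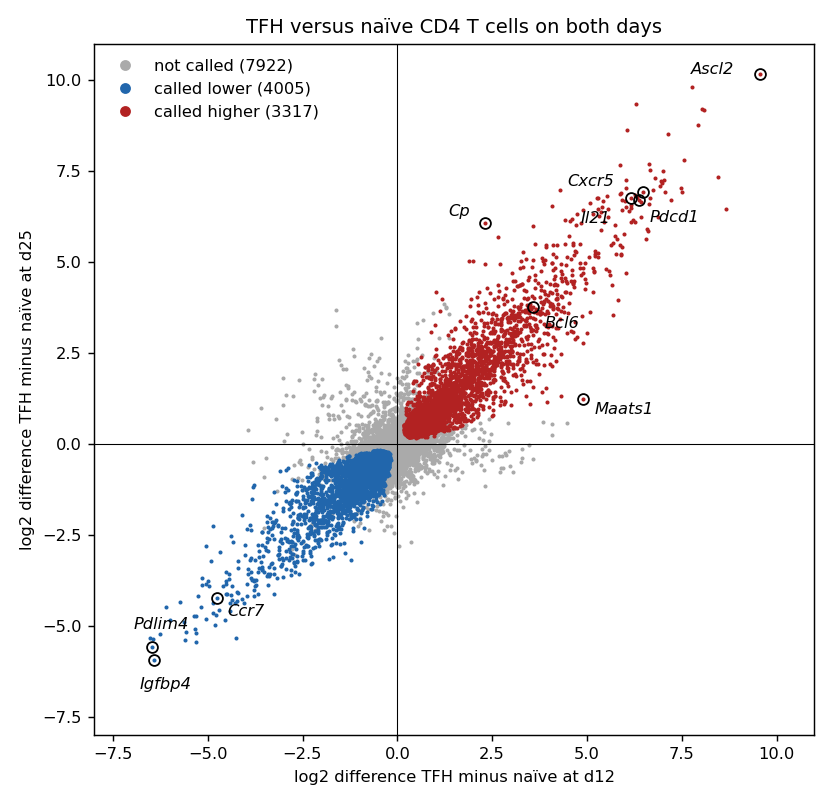
Log2 difference between TFH and naïve CD4 T cells at d12 (x axis) and at d25 (y axis), 1 point per gene for the 15244 genes tested; 3317 genes called higher are red, 4005 called lower blue, the others grey, and the labelled genes are the 4 markers and 6 further named genes. All called genes lie in the lower left or upper right quadrant.

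The 4 genes that define the cells followed the labels, and levels are given here and throughout for d12 first and d25 second. Cxcr5 (probe at chromosome 9, 44320071 to 44320130 in build NCBI37), the receptor for the follicular chemokine CXCL13, amounted to 1521 and 1411 RU in naïve and 134832 and 172249 RU in TFH cells (6.70 ± 0.21, adjusted p = 0.000121). Bcl6 (chromosome 16, 23965160 to 23965219), the repressor needed for TFH cells to form, rose from 5321 and 6302 to 63843 and 86439 RU (3.68 ± 0.14, adjusted p = 0.000146). Ccr7 (chromosome 11, 99005551 to 99005610), which guides cells to the T cell zone, changed from 127022 and 136320 to 4671 and 7209 RU (-4.5 ± 0.19, adjusted p = 0.00018). Pdcd1 encodes PD1, by which both populations were gated, and its levels of 2085 and 2082 RU in naïve and 171649 and 217537 RU in TFH cells are therefore no finding. In all 4 cases the arrays of both cell types lay far apart and did not overlap.

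**Figure D2:**
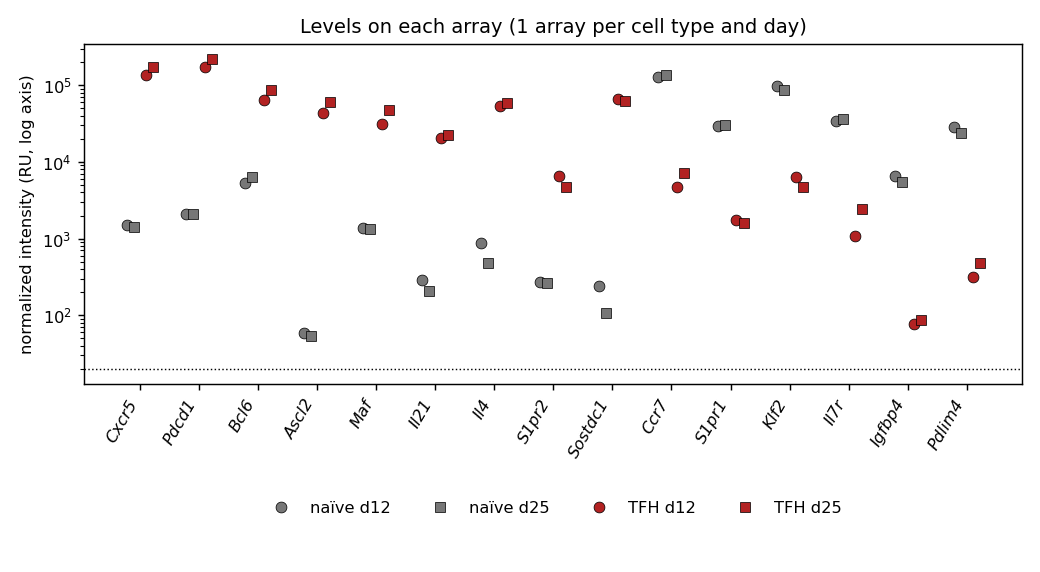
Normalized intensity in RU on a log axis for 15 genes on each array, naïve CD4 T cells in grey and TFH cells in red, circles for d12 and squares for d25. The values of both cell types do not overlap for any gene shown; the dotted line is the floor of 20 RU.

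Markers of other cells were read on all 4 arrays, since a sort can carry over neighbours. Of 19 B cell markers tested, 2 lay above the naïve array at d12 and 17 at d25, whereas the model called 2 higher and 1 lower. Cd79a, a subunit of the B cell receptor, had 726 and 761 RU in naïve and 282 and 1803 RU in TFH cells, and Ms4a1 (CD20) had 1166 and 846 RU in naïve and 273 and 2626 RU in TFH cells. The B cell signal of TFH cells was thus below that of naïve cells at d12 and above it at d25, and the summed level of the 22 B cell genes on the array ran from 36951 and 29586 RU to 17363 and 74405 RU. Of the germinal center B cell list, 8 of 10 were higher, among them Bcl6 and S1pr2, which TFH cells share, and Mef2b (360 and 232 RU to 7167 and 7167 RU). Among myeloid genes 8 of 18 were higher (4 without the TFH array of either day) and 3 lower, with summed levels of 97958 and 79892 RU in naïve and 73985 and 77080 RU in TFH cells, and Cd68 went from 586 and 599 to 4735 and 3550 RU. CD8 and NK cell markers were lower in 4 of 15 (26.7%), near the 26.3% of all genes, and higher in 1, namely Klrb1c (184 and 113 to 1486 and 2927 RU). They too differed by day, with 2 of the 15 above the naïve array at d12 and 7 at d25. The hemoglobin gene Hba-a1 fell (-0.96 ± 0.25, adjusted p = 0.0298), a call lost in 5 of the 8 fits without 1 array. Without the TFH array of d25, 6447 genes were called in all, and the model called 2 B cell markers higher and 8 lower. The part of such cells in the results below was not tested.

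**Figure D3:**
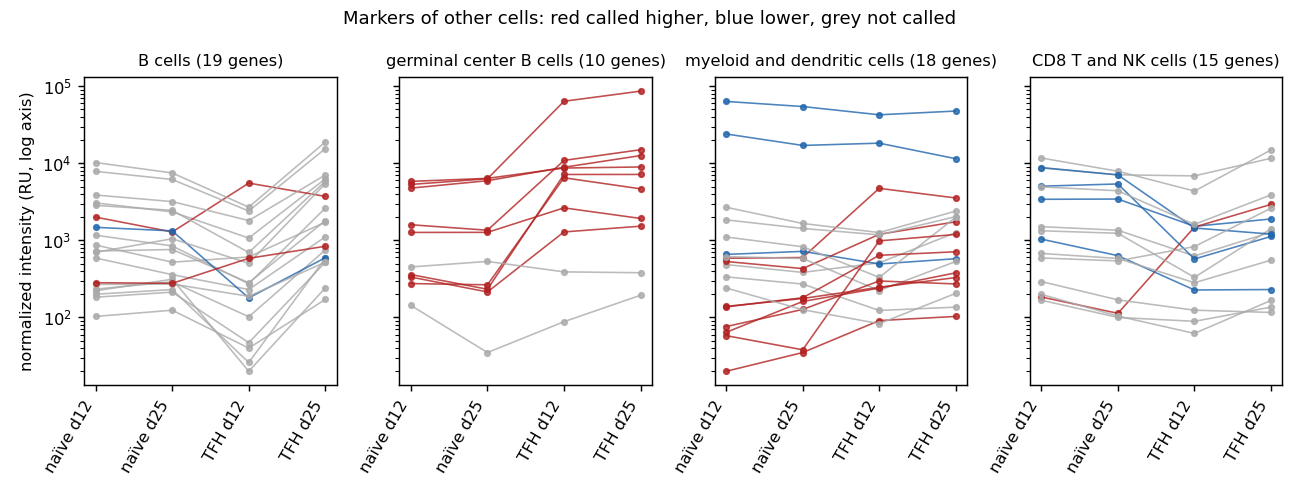
Level of single marker genes of other cell types in RU on a log axis on the 4 arrays (naïve d12, naïve d25, TFH d12, TFH d25), 1 line per gene, in panels for B cells, germinal center B cells, myeloid and CD8 or NK cells. Most B cell genes dip in TFH cells at d12 and peak in TFH cells at d25, whereas most germinal center genes are high in TFH cells on both days.

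The 12 genes with the largest fitted rises had low levels in naïve cells. Except for Sostdc1 they were not well above background there, so their order, also against genes such as Cxcr5, is not known. Ascl2 (chromosome 7, 150152734 to 150152793), a basic helix-loop-helix factor that starts Cxcr5 expression, was at 58 and 53 RU in naïve and 43718 and 61146 RU in TFH cells and thus at least 725-fold higher (adjusted p = 6.96e-05). Cebpa, a factor of myeloid cells, had 18511 and 18059 RU in TFH cells (at least 253-fold higher), and Sostdc1, a secreted antagonist of BMP and WNT ligands, rose from 244 and 107 to 66562 and 62470 RU (8.64 ± 0.31, adjusted p = 0.000142). The meiosis gene Mei1 was at least 237-fold higher, Asb2, which marks filamins for degradation, at least 136-fold higher, the transporter Abcc3 at least 206-fold higher, and the vitamin D receptor Vdr at least 43.2-fold higher. Genes better known from skin or muscle were among them as well, with Krt83, a hair keratin, at least 68.3-fold higher, the muscle phosphoglycerate mutase Pgam2 at least 88.8-fold higher and the stefin Stfa3 at least 92.6-fold higher. The apolipoprotein gene Apoc4 (at least 63.5-fold higher) and 1810009J06Rik (not well above background in naïve cells) complete the 12. In each of these genes both TFH arrays exceeded both naïve arrays, but Apoc4 differed strongly between the days (1566 and 13072 RU).

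Falls started from well measured levels in naïve cells. Igfbp4 (chromosome 11, 98913334 to 98913393), which binds insulin-like growth factors, dropped from 6555 and 5437 to 77 and 88 RU (-6.18 ± 0.14, adjusted p = 6.57e-05). The LIM protein Pdlim4 dropped from 28198 and 23568 to 317 and 487 RU (-6.04 ± 0.25, adjusted p = 0.000175), and St8sia6, a sialyltransferase, from 7947 and 10698 to 104 and 286 RU (-5.74 ± 0.30, adjusted p = 0.000285). Itgb3, the integrin β3 chain, changed by -5.25, Lypd6b by -5.37 and Gm34006 by -5.93. A further 6 genes were no longer well above background in TFH cells, where Lrrc75b was at least 38.3-fold lower, the adhesion molecule Amigo2 at least 37-fold lower, AMP deaminase Ampd1 at least 27.3-fold lower, the kinase Dapk1 at least 27.5-fold lower, Gm590 at least 25.7-fold lower and AK041010 at least 23.8-fold lower.

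Receptors that set the position of a cell split into opposed groups. Of 23 chemokine receptors 13 were tested, 7 were higher and 4 lower. Besides Cxcr5, Cxcr4, the receptor for CXCL12, rose from 453 and 855 to 5991 and 6361 RU (3.31 ± 0.29, adjusted p = 0.00112), and Cxcr6 (2.42 ± 0.36), Ccr6 (2.01 ± 0.36), Ccr4 (1.91 ± 0.10) and Cxcr3 (1.51 ± 0.16) rose too. Ccr9, the gut homing receptor, fell by 1.73, and Cxcr1 was at least 12-fold lower. The sphingosine-1-phosphate receptors crossed over. S1pr1, needed to leave the lymph node, fell from 29682 and 30631 to 1738 and 1598 RU (-4.18 ± 0.18, adjusted p = 0.00018), while S1pr2, which holds cells in the germinal center, rose from 275 and 265 to 6491 and 4666 RU (4.35 ± 0.15, adjusted p = 0.000138). Across all 25 lipid and other positioning receptors tested, 4 were higher and 13 lower. The prostaglandin receptor Ptger2 was at least 26.7-fold higher and Ptger3 at least 4.61-fold lower. The orphan receptor Gpr18 fell from 11381 and 10910 to 390 and 527 RU (-4.62 ± 0.17, adjusted p = 0.000146), whereas the oxysterol receptor Gpr183 was not called (0.43 ± 0.17, adjusted p = 0.092).

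Integrins and selectin ligands changed in both directions. Of 14 integrin chains tested 7 were higher and 6 lower. The LFA-1 chain Itgal rose by 1.84 ± 0.07 and Itgb1 by 1.53 ± 0.13, and Itgb5 was at least 9.85-fold higher. Both chains of the gut homing integrin α4β7 fell, Itga4 from 11853 and 12662 to 1115 and 2609 RU (-2.84 ± 0.29, adjusted p = 0.0017) and Itgb7 (-1.79 ± 0.20), and Itga6 changed by -2.89. Among 43 enzymes and ligands of the selectin and sialic acid list 15 were higher and 17 lower (10 lower without the naïve array of d25). Gcnt1, which makes core-2 O-glycans, rose from 235 and 259 to 3192 and 3057 RU (3.66 ± 0.15, adjusted p = 0.000176), and the sulfotransferases Chst2 (3.46 ± 0.16) and Chst11 (at least 1.9-fold higher) rose. Cmah, which hydroxylates N-acetylneuraminic acid and so removes the form of sialic acid that the GL7 antibody binds, fell from 3199 and 3327 to 566 and 413 RU (-2.75 ± 0.15, adjusted p = 0.000297), but GL7 was part of the gate. St6gal1, which adds the same sugar in α2,6 linkage, was not called (0.27 ± 0.09, adjusted p = 0.0579).

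Costimulatory and coinhibitory receptors mostly rose, 15 of 22 tested (68.2%) against 5 that fell (22.7%), where 21.8% of all genes rose and 26.3% fell. Fewer of them were called higher without the naïve array of d25. Of the 22, 3 passed the filter only through TFH cells, and of the 19 well above background on all 4 arrays 12 rose and 5 fell. Tigit was at least 82.8-fold higher (adjusted p = 0.000373), Lag3 rose from 514 and 242 to 12285 and 8186 RU (4.83 ± 0.45, adjusted p = 0.00135), and Ctla4 from 538 and 655 to 6485 and 8128 RU (3.61 ± 0.09, adjusted p = 6.96e-05). Icos (3.15 ± 0.19), Cd160 (3.79 ± 0.22) and Btla (1.5 ± 0.08) rose, while Cd28 was not called (0.39 ± 0.14, adjusted p = 0.0753). The collagen receptor Lair1 (-2.93 ± 0.30), Cd86 (-1.62 ± 0.22) and the adhesion receptor Cd226 (-1.39 ± 0.17), which competes with Tigit for its ligands, fell. Inhibitory receptors were thus found in both directions.

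TNF family ligands rose in 8 of 13 and fell in 2. Tnfsf11 (RANKL) went from 366 and 420 to 5946 and 8820 RU (4.21 ± 0.12, adjusted p = 8.71e-05), Tnfsf14 (LIGHT) from 609 and 749 to 9486 and 11408 RU (3.95 ± 0.16, adjusted p = 0.000161), and Tnfsf8 (CD30L) rose by 2.13 ± 0.23. Tnfsf13b, the B cell survival factor BAFF, had 20 and 23 RU in naïve and 779 and 874 RU in TFH cells and was at least 11.6-fold higher. For Cd40lg, the main helper ligand, the brightest probe was dim, with 117 and 123 RU in naïve and 126 and 170 RU in TFH cells, and the gene was not called. Of the receptors of the family, 8 of 21 were higher and 4 lower, led by Tnfrsf4 (OX40, 2.46 ± 0.13) and, downward, by Relt (-2.05 ± 0.11) and Tnfrsf25 (-1.49 ± 0.11). Of 10 SLAM receptors and adaptors 5 rose and 0 fell. The adaptor Sh2d1a (SAP), without which T cells do not hold on to B cells, rose from 19276 and 19336 to 77454 and 92379 RU (2.13 ± 0.13, adjusted p = 0.000408), Slamf6 by 1.28 ± 0.15 and Slamf1 by 0.79 ± 0.14, whereas Cd84 was not called (0.03 ± 0.10, adjusted p = 0.808).

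Cytokine genes were higher in 17 of 26 cases and lower in 2, against 21.8% and 26.3% of all genes. Their median difference was 2.32, or 1.02 with 7 genes set to their lower bound. These 7 passed the filter only through TFH cells. Of the 19 well above background on all 4 arrays, 11 were higher and 2 lower, with a median of 0.82. Il21 rose from 285 and 205 to 20301 and 22346 RU (6.46 ± 0.25, adjusted p = 0.000147) and Il4 from 884 and 485 to 53188 and 58215 RU (6.41 ± 0.39, adjusted p = 0.000411). Ifng, the Th1 cytokine, rose from 185 and 112 to 1079 and 1788 RU (3.27 ± 0.40, adjusted p = 0.00303), and Il2 from 845 and 669 to 1388 and 1023 RU (0.66 ± 0.18, adjusted p = 0.0337), a call that was lost in 5 of the 8 fits without 1 array. Beyond these, Csf1, the growth factor of macrophages, rose from 141 and 147 to 3066 and 4445 RU (4.68 ± 0.19, adjusted p = 0.000163), Bmp7 from 598 and 586 to 8638 and 8394 RU (3.85 ± 0.08, adjusted p = 6.44e-05), and the chemokine Ccl1 was at least 18.3-fold higher. Il10 was seen at d12 but hardly at d25 in TFH cells (442 and 86 RU) and was not called (adjusted p = 0.102). Oncostatin M (Osm, -1.34 ± 0.17) fell.

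Receptors for cytokines were more often lower, with 10 of 37 higher and 16 lower. Il7r, which naïve cells need to survive, went from 33900 and 36691 to 1089 and 2450 RU (-4.43 ± 0.27, adjusted p = 0.000438), and Il4ra from 4503 and 5187 to 197 and 359 RU (-4.18 ± 0.27, adjusted p = 0.000512), so that Il4 and the chain of its receptor moved in opposite directions. Il18r1 (-2.34 ± 0.15), Ifngr2 (-2.21 ± 0.18), Tgfbr3 (-1.13 ± 0.11) and Il21r (-0.62 ± 0.09) fell. Il1r1 was at least 67.5-fold higher, its decoy Il1r2 rose from 221 and 110 to 22127 and 10629 RU (6.62 ± 0.34, adjusted p = 0.000268), Il9r was at least 15.6-fold higher, and Il2rb, the chain shared by the IL-2 and IL-15 receptors, rose from 4591 and 4726 to 27942 and 31127 RU (2.66 ± 0.12, adjusted p = 0.000221). The IL-6 receptor changed little, with 0.5 ± 0.10 for the called Il6st and -0.22 ± 0.09 for Il6ra, which was not called. In the JAK and STAT list 15 of 27 genes were not called, Stat3 (0.15 ± 0.20, adjusted p = 0.555) and Socs3 among them, and the latter differed between the TFH arrays (23018 and 3807 RU). Jak2 (1.5 ± 0.09) and Stat4 (1.40 ± 0.11) rose, and Cish, a target of STAT5, fell from 2157 and 3130 to 724 and 762 RU (-1.81 ± 0.14, adjusted p = 0.000751).

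Transcription factors of follicular and effector cells were higher in 31 of 50 cases and lower in 9 (5 without the naïve array of d25). Maf, which drives Il21 and Il4, rose from 1388 and 1345 to 30956 and 47793 RU (4.82 ± 0.23, adjusted p = 0.000221), and Pou2af1, a coactivator of Oct proteins, from 4533 and 3664 to 40749 and 74764 RU (3.76 ± 0.32, adjusted p = 0.00107). Tox2 was at least 13.7-fold higher, Tox rose by 1.80 ± 0.14, and Irf4 by 1.45 ± 0.16. Also in the list were the zinc finger factors Ikzf2 (Helios, at least 75.2-fold higher), Plagl1 (at least 40.7-fold higher) and Zeb2 (at least 9.47-fold higher). Prdm1 (Blimp-1), which opposes Bcl6, fell from 883 and 991 to 608 and 566 RU (-0.67 ± 0.20, adjusted p = 0.0468), and Runx3 from 1267 and 1191 to 266 and 122 RU (-2.77 ± 0.29, adjusted p = 0.0018). The Prdm1 call was lost in 6 of the 8 fits that leave out 1 array.

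Factors and surface genes of resting T cells fell in 33 of 62 and rose in 6. Klf2, which keeps S1pr1 expressed, dropped from 99092 and 86573 to 6302 and 4748 RU (-4.08 ± 0.21, adjusted p = 0.000251), Lef1 from 13372 and 11359 to 2144 and 1888 RU (-2.61 ± 0.10, adjusted p = 0.000148), and Foxo1 (-1.22 ± 0.11) and Foxp1 (-0.80 ± 0.14) fell. Tcf7, the close relative of Lef1, stayed at 81059 and 94570 RU in naïve and 75297 and 96555 RU in TFH cells and was not called (adjusted p = 0.75), so the pair diverged. Dapl1 (-4.76 ± 0.11) and Treml2 (-4.69 ± 0.14) were among the largest falls of the list. Gfi1, the cell cycle inhibitor Cdkn2c and Mxd4, an antagonist of Myc, rose, by 1.92 ± 0.12, 2.07 ± 0.10 and 1.59 ± 0.12.

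Genes that respond to antigen receptor signals were mixed, 18 of 43 higher and 10 lower (6 lower without the TFH array of d12). Egr2 rose from 2681 and 3595 to 15314 and 17374 RU (2.39 ± 0.11, adjusted p = 0.000204), Gadd45b from 2236 and 1674 to 23765 and 20667 RU (3.52 ± 0.13, adjusted p = 0.000146), Nr4a1 by 0.73 ± 0.10, and Dusp4 was at least 7.77-fold higher. Jun (-1.57 ± 0.27), Ier2 (-1.58 ± 0.10) and Fosl2 (-1.39 ± 0.19), parts of the early AP-1 response, fell, and Fos was not called (1.37 ± 0.52, adjusted p = 0.0839). Ppp3ca, the catalytic chain of calcineurin, fell from 10001 and 12268 to 939 and 1608 RU (-3.17 ± 0.21, adjusted p = 0.000501). In the receptor signalling list 22 of 63 rose (34.9%) and 14 fell (22.2%), against 21.8% and 26.3% of all genes, and this balance turned under 2 alternatives. The kinases Zap70 (1.20 ± 0.10), Fyn (1.10 ± 0.09) and Lck (0.54 ± 0.14) rose, the last neither with 75th percentile scaling (-0.023) nor in 5 of the 8 fits without 1 array, while the Tec kinases Txk (-2.94 ± 0.18) and Tec (-2.91 ± 0.23) fell. Rnf128 (GRAIL), a ubiquitin ligase of anergic cells, rose from 284 and 241 to 4320 and 10273 RU (4.67 ± 0.38, adjusted p = 0.000902), and Rasgrp2, an activator of Rap1, fell from 25703 and 23213 to 1919 and 1541 RU (-3.83 ± 0.22, adjusted p = 0.00036). The CD3 chain gene Cd3e was not called (-0.13 ± 0.13, adjusted p = 0.472).

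Pathways known from development held large differences in single genes. In the NOTCH list 9 of 24 rose and 4 fell. The target genes Hes5 (449 and 283 to 5501 and 4554 RU, 3.81 ± 0.15, adjusted p = 0.000152) and Hey1 (at least 20.6-fold higher) and the receptor Notch3 (at least 4.11-fold higher) rose, while Notch1 was not called (-0.04 ± 0.32, adjusted p = 0.929) and Lfng, which modifies the receptors, fell by 2.13. In the TGF-β and BMP list 8 of 35 rose (22.9%), near the 21.8% of all genes, and 14 fell (40%), against 26.3%. With a required difference of at least 1 this balance turned, with 6 higher and 5 lower. The inhibitor Smad7 fell from 3237 and 3485 to 152 and 145 RU (-4.5 ± 0.09, adjusted p = 5.93e-05), and Id1, a target of BMP signals, rose from 254 and 327 to 4752 and 4735 RU (4.04 ± 0.29, adjusted p = 0.000645), as did the antagonist Fst (at least 11.4-fold higher). WNT genes were lower in 10 (38.5%) and higher in 6 (23.1%) of 26, the latter near the 21.8% of all genes. Wnt10a rose by 3.0 ± 0.33 and Ctnnbip1, which binds β-catenin, by 3.66 ± 0.24, while Wnt5b (at least 20.1-fold lower) and Sfrp2 (at least 11.7-fold lower) fell. Of 25 ephrin, semaphorin and plexin genes tested 11 rose (44%) and 7 fell (28%), against 21.8% and 26.3% of all genes. However, 5 of them passed the filter only through TFH cells. Of the 20 well above background on all 4 arrays 6 rose and 7 fell, the 1 alternative under which the balance turned. The plexin Plxnd1 rose from 552 and 773 to 9515 and 10820 RU (3.96 ± 0.13, adjusted p = 0.000126) and Plxnc1 by 2.68 ± 0.07, and Nrp1 was at least 14-fold higher, whereas Nrp2 (-1.75 ± 0.26) and Sema4a (-3.17 ± 0.12, adjusted p = 0.000146) fell.

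Of 38 regulators of G protein signals 18 were higher (47.4%) and 7 lower (18.4%), against 21.8% and 26.3% of all genes. However, 6 of them passed the filter only through TFH cells. Of the 31 well above background on all 4 arrays 12 were higher and 6 lower, with a median of 0.11. Rgs16, which shortens chemokine signals, was at least 144-fold higher (102 and 74 RU in naïve and 10221 and 15299 RU in TFH cells), Rgs8 at least 22-fold higher and the G protein subunit Gna14 at least 39.6-fold higher. Rgs1 rose by 2.98 ± 0.09 and Rgs10 from 85719 and 94857 to 231290 and 268465 RU (1.47 ± 0.08, adjusted p = 0.000354), while Rgs2 was not called (0.11 ± 0.24, adjusted p = 0.738). In purine signalling, the ATP receptor P2rx7 rose from 1251 and 1595 to 30182 and 35418 RU (4.53 ± 0.12, adjusted p = 7.58e-05), Nt5e (CD73), which makes adenosine, from 1092 and 1251 to 9837 and 17114 RU (3.47 ± 0.21, adjusted p = 0.000417), and the adenosine receptor Adora2a by 1.76 ± 0.12, whereas Ada, which destroys adenosine, fell from 2373 and 1911 to 732 and 526 RU (-1.78 ± 0.12, adjusted p = 0.000606). Members of the adenosine axis thus moved in both directions. Among 64 brakes of Ras and MAP kinases, 26 rose (40.6%) and 18 fell (28.1%), against 21.8% and 26.3% of all genes. Spry1 went up from 166 and 149 to 3146 and 1941 RU (3.97 ± 0.27, adjusted p = 0.00057) and Rras2 down from 2202 and 2134 to 167 and 159 RU (-3.73 ± 0.09, adjusted p = 6.96e-05).

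Neuropeptide and hormone receptors are less often studied in T cells. The receptors for vasoactive intestinal peptide crossed over, with Vipr1 falling from 37588 and 38053 to 2716 and 2847 RU (-3.77 ± 0.14, adjusted p = 0.000146) and Vipr2, at 20 and 20 RU in naïve and 1161 and 2358 RU in TFH cells, at least 23.2-fold higher. Penk, the precursor of enkephalins, rose from 129 and 211 to 5686 and 14552 RU (5.78 ± 0.31, adjusted p = 0.000284), and Dbh, which makes noradrenaline, was at least 16.2-fold higher. Of 33 such genes tested 12 rose and 13 fell (7 without the naïve array of either day), the balance turning under 10 alternatives, and 56 of 89 were too dim to test. Among 25 nuclear receptors Nr2f6 (3.31 ± 0.12) and Rora (2.49 ± 0.23) rose besides Vdr, and the retinoic acid receptor Rara fell from 8068 and 8614 to 1513 and 1242 RU (-2.60 ± 0.12, adjusted p = 0.000198), as did the thyroid hormone receptors Thra (-1.58 ± 0.12) and Thrb (-2.02 ± 0.32).

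Genes of G2 and mitosis rose, 62 of 74 tested and 3 lower, against 21.8% and 26.3% of all genes. Their median difference was 2.07, or 1.5 with 25 genes at their lower bound. Since 25 of them passed the filter only through TFH cells, the 49 that were well above background on all 4 arrays were counted separately, and 37 of these were higher and 3 lower. Mki67, the proliferation antigen, rose from 511 and 384 to 3408 and 2290 RU (2.66 ± 0.19, adjusted p = 0.000622), Ccnb1, the mitotic cyclin, from 439 and 285 to 1815 and 1553 RU (2.25 ± 0.21, adjusted p = 0.0014), and Top2a from 149 and 157 to 756 and 420 RU (1.88 ± 0.26, adjusted p = 0.00437). Cdk1 had 20 and 20 RU in naïve and 328 and 92 RU in TFH cells and was at least 2.44-fold higher. In Cdk1, Top2a and Mki67 the TFH level at d25 was below that at d12, though above both naïve arrays. Against the others, Kif23 (-1.08 ± 0.28) and the condensin Smc4 (-0.5 ± 0.08) fell.

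Promoters of such genes share short elements, and 3 are shown because these genes moved together. The sequences are the 150 bases before the start of the gene, 5′ to 3′ on the strand of the gene, from RefSeq (GRCm38.p6), and capitals mark CCAAT and TTTGAA, the latter being the cell cycle homology region, each searched on both strands.
Cdk1 (chr10:69352913-69353062, minus strand): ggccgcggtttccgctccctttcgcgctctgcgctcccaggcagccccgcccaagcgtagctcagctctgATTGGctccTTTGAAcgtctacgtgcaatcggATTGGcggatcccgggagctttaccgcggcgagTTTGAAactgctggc
Top2a (chr11:99024190-99024339, minus strand): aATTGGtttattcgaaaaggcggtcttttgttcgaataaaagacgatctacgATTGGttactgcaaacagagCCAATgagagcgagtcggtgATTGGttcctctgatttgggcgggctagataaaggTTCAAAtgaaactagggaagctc
Mki67 (chr7:135716380-135716529, minus strand): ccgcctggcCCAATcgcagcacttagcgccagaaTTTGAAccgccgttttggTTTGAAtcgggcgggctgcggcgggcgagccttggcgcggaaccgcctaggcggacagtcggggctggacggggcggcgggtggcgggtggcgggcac
In the full window of 250 bases before to 50 after the start, 50 of 69 list members with a promoter held CCAAT (72.5%) and 47 held TTTGAA (68.1%), compared to 41.1% and 20.2% of all 27025 genes. Among the S phase list the shares were 61.2% and 16.3%. By call, TTTGAA was held by 35 of 55 G2 and mitosis members that rose (63.6%), 6 of 8 not called (75%) and 2 of 2 that fell. CCAAT was held by 40 of 55 that rose (72.7%), 4 of 8 not called (50%) and 2 of 2 that fell. No match of one element overlaps one of the other in the windows shown, and a match describes letters, not binding.

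In the S phase list 32 of 59 were higher and 3 lower, with a median of 0.56. Tk1, which salvages thymidine, rose from 309 and 262 to 3908 and 2252 RU (3.38 ± 0.15, adjusted p = 0.000208), Uhrf1 by 2.09 ± 0.15, the helicase chain Mcm5 by 0.68 ± 0.10, and Pcna, at 18427 and 20747 RU in naïve and 18544 and 19569 RU in TFH cells, was not called. Of 35 brakes of the cycle and D cyclins tested 10 were higher and 9 lower (median 0.01), so that brakes moved both ways. Cdkn1a (p21) had 43 and 26 RU in naïve and 1111 and 1038 RU in TFH cells and was at least 15.1-fold higher, and Cdkn2c rose from 1170 and 1210 to 4398 and 5652 RU. The D cyclins Ccnd2 (-0.81 ± 0.15, adjusted p = 0.0104) and Ccnd3 (-0.71 ± 0.13, adjusted p = 0.00945) fell, as did the inhibitor Cdkn2d (-1.34 ± 0.12). Myc, which drives growth and ribosome production, fell from 7713 and 8263 to 1652 and 1144 RU (-2.54 ± 0.19, adjusted p = 0.000695), and both TFH arrays lay below both naïve arrays.

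**Figure D4:**
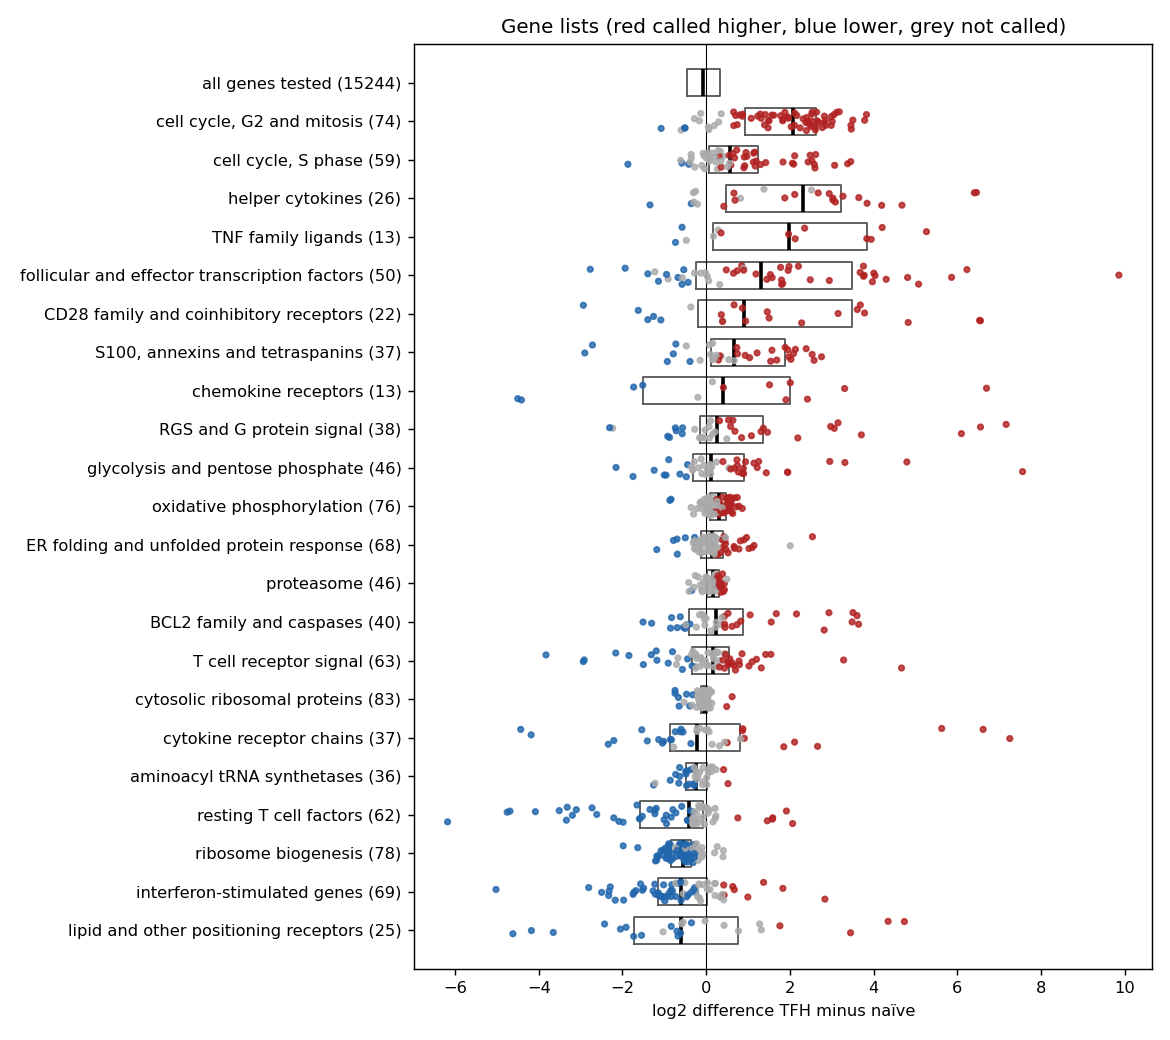
Difference between TFH and naïve CD4 T cells on the log2 scale for the tested members of 22 gene lists and for all 15244 genes tested, as box (quartiles), line (median) and 1 point per member; red points were called higher, blue points lower, grey points not called. The ribosome biogenesis list lies below 0 with a median of -0.55, the G2 and mitosis list above it with 2.07.

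Genes for making ribosomes, in contrast, fell. Of 78 ribosome biogenesis genes tested 62 were lower and 0 higher, with a median of -0.55 and quartiles of -0.84 and -0.36. Fibrillarin (Fbl) fell from 20001 and 23193 to 10500 and 12441 RU (-0.91 ± 0.12, adjusted p = 0.00385), nucleolin (Ncl) from 31182 and 33928 to 18754 and 25646 RU (-0.57 ± 0.11, adjusted p = 0.0109), Nop56 changed by -0.86 ± 0.07, and Polr1b, a chain of RNA polymerase I, from 2641 and 2991 to 1365 and 1080 RU (-1.21 ± 0.14, adjusted p = 0.00267). Although the differences were small, 6 members were above naïve cells at d12 and 4 at d25. Without the naïve array of d12 or d25, 36 and 33 of the calls were made. The result for proteins of the finished ribosome depended on the scaling. After quantile normalization 74 of 83 were not called and 7 were lower (median -0.05), whereas with 75th percentile scaling in its place 78 were lower (median -0.896), and with the mean of all probes of a gene 20. Genes for tRNA synthetases were lower in 15 of 36 (41.7%) and translation factors in 23 of 75 (30.7%), the latter near the 26.3% of all genes. Without the naïve array of d12 or d25 these counts were 8 and 7 for the synthetases and 9 and 12 for the factors. Among the latter Eif4b (-1.06 ± 0.10), Eif3e (-1.03 ± 0.08) and Eef2 (-0.59 ± 0.11) fell and Eif4ebp1, a repressor of translation, rose (0.57 ± 0.14, adjusted p = 0.0239), though not in 5 of the 8 fits without 1 array. Mitochondrial ribosomal proteins lay on either side of 0, 11 higher and 13 lower of 77, and at most 3 in each direction without the naïve array of either day. The letters CACGTG were held by 18.6% of 70 ribosome biogenesis promoters and by 8.09% of all genes. By call, 9 of 54 members that fell (16.7%) held them and 3 of 13 that were not called (23.1%).

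Energy metabolism changed by large steps in single glycolytic genes and by small ones in respiration. Of 46 genes of glycolysis and the pentose phosphate path 20 rose and 9 fell. Gapdh rose from 149981 and 152509 to 329478 and 338476 RU (1.14 ± 0.07, adjusted p = 0.000475), Aldoc from 900 and 739 to 9482 and 6955 RU (3.32 ± 0.23, adjusted p = 0.00058), the sugar transporter Slc2a6 from 223 and 170 to 3863 and 7591 RU (4.80 ± 0.36, adjusted p = 0.000707), and the lactate exporter Slc16a3 by 2.95 ± 0.11. Slc2a3 (-1.0 ± 0.16) and the kinase Pdk1 (-1.75 ± 0.19) fell, and the main glucose transporter Slc2a1 was not called (0.25 ± 0.13, adjusted p = 0.163). Hif1a rose from 1901 and 2308 to 14479 and 26132 RU (3.22 ± 0.18, adjusted p = 0.000324) and its target Egln3 from 217 and 209 to 11148 and 9570 RU (5.60 ± 0.11, adjusted p = 5.93e-05), but Ndrg1, also induced by hypoxia, fell from 1555 and 1945 to 187 and 188 RU (-3.21 ± 0.11, adjusted p = 0.000126). Respiratory chain genes rose in 39 of 76 and fell in 2, none by 1 or more on the log2 scale (median 0.30, largest rise Cox8a with 0.86 ± 0.09), and 15 and 14 rose in the fits without the naïve array of d12 or d25. With 75th percentile scaling 17 rose and 5 fell, with a median of 0.052. The citric acid cycle showed 4 higher and 7 lower genes of 29 (4 lower without the naïve array of either day), the latter about the share of all genes (26.3%), among them Idh2 (-0.73 ± 0.11) and Me2 (-1.35 ± 0.16), which fell.

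Genes of lipid and amino acid supply and of redox control also varied by member. Genes of cholesterol and fatty acid synthesis fell in 15 and rose in 8 of 57, where 26.3% of all genes fell, the rises being 3 without the naïve array of d12. Acss2, which makes acetyl-CoA from acetate, fell from 13348 and 14850 to 2011 and 2944 RU (-2.53 ± 0.15, adjusted p = 0.000397), and the desaturase Scd2 rose by 1.59 ± 0.09. Among amino acid carriers Slc43a1 was at least 41.6-fold higher and Slc7a10 at least 26.3-fold higher, while Slc7a5, the carrier of activated T cells, fell (-0.93 ± 0.19, adjusted p = 0.0155). The heme oxygenase Hmox1 rose from 375 and 351 to 6811 and 6642 RU (4.21 ± 0.13, adjusted p = 0.000104) and Srxn1, a target of NRF2, was at least 54.7-fold higher, whereas the glutathione transferases Mgst3 (-3.18 ± 0.20) and Gsto1 (-1.53 ± 0.12) fell. The transferrin receptor Tfrc rose by 1.37 ± 0.24.

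Genes of protein folding in the endoplasmic reticulum rose in 20 of 68 and fell in 6, while 42 were not called, and 13 and 10 rose without the naïve array of d12 or d25. Xbp1 rose from 14133 and 15470 to 28916 and 34801 RU (1.10 ± 0.09, adjusted p = 0.000938), the chaperone Hspa5 (BiP) from 37858 and 45564 to 72869 and 97606 RU (1.02 ± 0.09, adjusted p = 0.00125), and the sensor Atf6 from 120 and 187 to 874 and 869 RU (2.54 ± 0.21, adjusted p = 0.000925). Hsp90b1, another target of this response, was not called (-0.22 ± 0.09, adjusted p = 0.0958), and Ddit3 (CHOP), linked to cell death, fell (-0.70 ± 0.09, adjusted p = 0.00352). Proteasome genes rose in 15 of 46, none by 1 or more, but leaving out any array reduced this count to between 0 and 8 and 75th percentile scaling to 4. Of 50 genes of autophagy and lysosomes Gabarapl1 rose from 1058 and 833 to 7770 and 10145 RU (3.24 ± 0.21, adjusted p = 0.00051) and Npc2 fell from 69316 and 67905 to 15436 and 14635 RU (-2.19 ± 0.10, adjusted p = 0.0002).

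Of 40 genes of cell death tested 17 were higher (42.5%), against 21.8% of all genes, and 10 lower (25%), near the 26.3% of all genes. The survival genes Bcl2 (-1.51 ± 0.16, adjusted p = 0.00213) and Mcl1 (-0.69 ± 0.11, adjusted p = 0.0065) fell, while Bcl2a1d rose from 14398 and 13970 to 161985 and 156616 RU (3.49 ± 0.08, adjusted p = 6.44e-05) and Bcl2a1c by 3.64 ± 0.09. The Bcl2a1 genes are near copies, so their probes may share signal. Casp1 rose from 2163 and 2165 to 24717 and 28091 RU (3.61 ± 0.11, adjusted p = 0.000108) and Casp4 by 3.51 ± 0.16, both inflammatory caspases, whereas Casp8 fell (-0.85 ± 0.07, adjusted p = 0.00108). Fas, the death receptor, rose from 4767 and 5948 to 8891 and 12598 RU (0.99 ± 0.09, adjusted p = 0.00122).

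Interferon-stimulated genes fell in 41 of 69 cases and rose in 8, with a median of -0.61. Oas2, a sensor of double-stranded RNA, had 796 and 1063 RU in naïve and 20 and 40 RU in TFH cells and was at least 20.8-fold lower. Usp18, which limits the response, fell from 4893 and 5162 to 722 and 1384 RU (-2.33 ± 0.23, adjusted p = 0.00164), and the GTPase genes Tgtp1 and Gbp7 from 805 and 799 to 82 and 160 RU (-2.81 ± 0.33, adjusted p = 0.00277) and from 1810 and 1977 to 263 and 426 RU (-2.5 ± 0.21, adjusted p = 0.000935). Slfn8 fell by 2.29 and Irf7, the main amplifier of interferon, by 0.93 on the log2 scale. Against this, Ifi205 rose from 316 and 177 to 1622 and 1764 RU (2.84 ± 0.37, adjusted p = 0.00369) and Mx1 from 122 and 162 to 338 and 392 RU (1.37 ± 0.12, adjusted p = 0.00123), and Isg15, at 33557 and 27509 RU in naïve and 38950 and 38431 RU in TFH cells, was not called. The list was therefore mostly lower in TFH cells but not uniform.

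To show what members of different direction have in common, the 150 bases before the start are given for 3 that fell (Gbp7, Tgtp1, Slfn8), 1 that was not called (Isg15) and 1 that rose (Ifi205), from RefSeq (GRCm38.p6) and 5′ to 3′ on the strand of the gene. Capitals mark GAAA followed, after 2 bases of any kind, by GAAA, the core of the interferon-stimulated response element, searched on both strands.
Gbp7 (chr3:142530186-142530335, plus strand): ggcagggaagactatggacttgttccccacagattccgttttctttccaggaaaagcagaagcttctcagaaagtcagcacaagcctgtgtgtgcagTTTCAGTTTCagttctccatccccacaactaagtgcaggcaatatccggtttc
Tgtp1 (chr11:48992247-48992396, minus strand): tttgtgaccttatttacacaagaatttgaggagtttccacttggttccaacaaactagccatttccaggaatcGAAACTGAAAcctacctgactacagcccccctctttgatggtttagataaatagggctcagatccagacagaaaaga
Slfn8 (chr11:83020811-83020960, minus strand): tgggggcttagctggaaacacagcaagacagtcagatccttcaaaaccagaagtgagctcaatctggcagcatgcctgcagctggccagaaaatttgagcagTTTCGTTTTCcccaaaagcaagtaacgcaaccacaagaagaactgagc
Isg15 (chr4:156200819-156200968, minus strand): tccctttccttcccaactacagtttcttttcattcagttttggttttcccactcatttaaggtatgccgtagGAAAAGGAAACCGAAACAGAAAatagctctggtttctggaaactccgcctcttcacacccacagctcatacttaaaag
Ifi205 (chr1:174031756-174031905, minus strand): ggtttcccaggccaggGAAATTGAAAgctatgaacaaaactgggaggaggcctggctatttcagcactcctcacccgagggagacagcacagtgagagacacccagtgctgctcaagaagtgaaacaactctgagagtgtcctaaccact
Each window holds 1 match except that of Isg15, where 3 overlapping matches form a run. In the full windows the letters were found for 31 of 49 list members with a promoter (63.3%) and for 3.99% of all genes. By call, 17 of 33 members that fell held them, 10 of 12 that were not called and 3 of 3 that rose, while 1 was too dim to test.

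**Figure D5:**
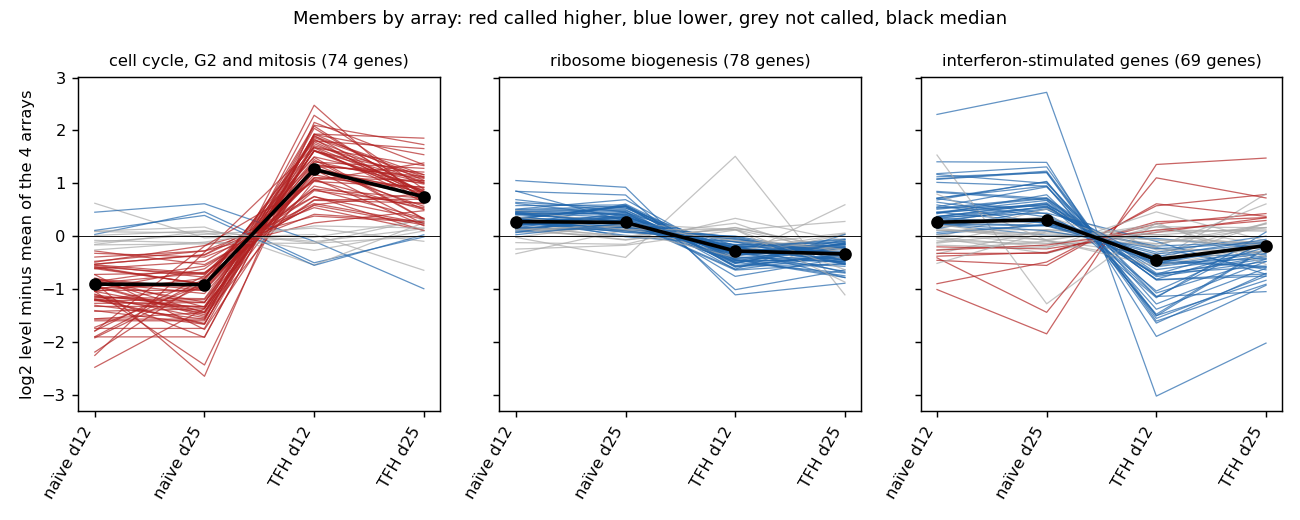
Level relative to the mean of the 4 arrays (log2) on the arrays naïve d12, naïve d25, TFH d12 and TFH d25, 1 line per tested member of the lists for G2 and mitosis, ribosome biogenesis and interferon-stimulated genes, with the median in black. The mitotic lines rise, most lines of ribosome biogenesis fall a little, and those of interferon-stimulated genes spread.

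Smaller families of T cell genes were set against the 26.3% of all genes that fell. Of 9 Gimap GTPases, some of which keep resting T cells alive, 4 (44.4%) fell and 1 rose, with Gimap4 going from 53910 and 66774 to 27179 and 21148 RU (-1.32 ± 0.19, adjusted p = 0.00462) and Gimap5 rising slightly (0.40 ± 0.09, adjusted p = 0.0182). Among Schlafen and Ly6 genes 6 of 15 (40%) fell, led by Slfn1 (-2.09 ± 0.12) and Ly6k (-1.92 ± 0.11). Of 26 genes of MHC and antigen presentation 4 were called higher and 3 lower, a balance that turned under 11 of the 21 alternatives, with H2-K1 (0.46 ± 0.08) and B2m (0.30 ± 0.09) among the former. With 75th percentile scaling in place of quantile normalization both were below naïve cells (-0.38 and -0.51), and the B2m call was lost whichever of the 8 arrays was left out.

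In the cytoskeleton both directions were found, 33 of 87 cytoskeletal genes rising and 26 falling, a balance that turned with 75th percentile scaling in place of quantile normalization. Smtn (smoothelin), a protein of smooth muscle, rose from 504 and 471 to 32806 and 42978 RU (6.27 ± 0.24, adjusted p = 0.000146), and the tubulins Tubb2a (8362 and 8125 to 52705 and 62792 RU, 2.80 ± 0.22, adjusted p = 0.000815) and Tubb6 (at least 38.8-fold higher) rose. Vimentin (Vim) fell from 34571 and 37266 to 11755 and 9217 RU (-1.79 ± 0.15, adjusted p = 0.00103), and Actb was not called (0.29 ± 0.11, adjusted p = 0.0929). S100 proteins, annexins and tetraspanins rose in 20 of 37, where Anxa2 went from 3693 and 3060 to 24607 and 20993 RU (2.76 ± 0.09, adjusted p = 0.000126) and S100a4 rose by 1.98 ± 0.19, while Anxa6 fell (-2.90 ± 0.09, adjusted p = 0.000103). Among granule and fusion genes the syntaxin Stx11 rose from 210 and 255 to 7748 and 10069 RU (5.25 ± 0.20, adjusted p = 0.000146), cathepsin L (Ctsl) from 2619 and 2474 to 14710 and 29534 RU (3.03 ± 0.31, adjusted p = 0.00182), and serglycin (Srgn) by 1.53 ± 0.12. Perforin (Prf1) fell from 8805 and 7067 to 1446 and 1206 RU (-2.58 ± 0.09, adjusted p = 0.000132), as did the NK cell gene Klrd1 (5049 and 5395 to 573 and 1124 RU).

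Among chromatin genes, 56 of 92 histone modifiers were not called. Ezh2, the H3K27 methyltransferase, rose from 1451 and 1660 to 5258 and 4119 RU (1.58 ± 0.15, adjusted p = 0.0013), Tet1, which oxidizes methylcytosine, fell from 549 and 567 to 67 and 85 RU (-2.89 ± 0.27, adjusted p = 0.00135), and Tet2 fell by 0.52, whereas Dnmt1 was not called (0.20 ± 0.11, adjusted p = 0.188). Of 43 ion channels and pumps 15 rose and 17 fell, 11 without the naïve array of d12. Trpm6, a magnesium channel, was at least 30.3-fold higher, the ryanodine receptor Ryr1 at least 16.4-fold higher, and the potassium channel Kcna3 rose by 1.22 ± 0.11.

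A few calls rest on 1 day more than on the other. Ceruloplasmin (Cp) had 99 and 1354 RU on the TFH arrays of d12 and d25, Maats1 601 and 87 RU, the GTPase Gem 326 and 1558 RU, the phosphatase Ppap2a 349 and 810 RU, and Apoc4, mentioned above, 1566 and 13072 RU. In 4 of these 5 genes the difference from naïve cells was larger at d25 and in Maats1 at d12. A day is represented by 1 array of each cell type, so this gap has no test.

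The change from naïve to TFH cells was not the same as that from Treg to TFR cells in every gene, and 1218 genes (7.99% of those tested) were called for a gap between them. Ascl2 had 357 and 490 RU in Treg and 3578 and 6458 RU in TFR cells, which is 3.52 on the log2 scale, with a gap of -6.34 ± 0.33 (adjusted p = 0.0035). Pdlim4 was already low in Treg cells (582 and 494 RU), with 228 and 289 RU in TFR cells. Since TFH cells were GL7+ and TFR cells GL7+/-, the GL7 gate and Foxp3 cannot be told apart in these gaps.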

How the data were processed

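RNA of sorted cells was amplified, labelled with an Alexa Fluor dye and hybridized to Agilent mouse arrays with 4 spots per probe, 1 array per cell type and day. Per the methods, the authors extracted intensities with Agilent Feature Extraction 10.7.3.1, excluded flawed spots, averaged the spots of a probe, quantile normalized the arrays and scaled the 75th percentile to 1500. The deposited series table holds these normalized intensities on a linear scale, rounded, with a floor of 20. Rebuilt from the deposited spot intensities they correlated with the table at 0.999 on every array over probes, with a median offset of 0. The software's other deposited values, flags for spots above background among them, decided which genes were tested, where more than 0.5 of the retained spots of a probe had to be well above background. No probe was saturated, and 46.3% to 50.4% of the 39429 probes were well above background on an array.

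Log2 values of the 8 arrays were fitted with limma 3.58.1 in R 4.3.3 (cell type plus day, lmFit and eBayes, 3 residual degrees of freedom). Day pairs the arrays by the labels, and over genes the change from d12 to d25 in TFH and naïve cells correlated with r = 0.305. The naïve and TFH arrays of a day shared a slide. The 4 Treg and TFR arrays served for the spread and for 1 contrast. Named genes were the 4 markers, the 12 largest fitted rises and the 12 largest fitted falls, key genes of each list whatever their result and up to 4 members per list with the largest rise and 4 with the largest fall, the 5 largest gaps in each direction to the change in Foxp3 expressing cells, and the 5 largest gaps between the days. The 64 gene lists, written from general knowledge, and the comparison were chosen with earlier results of these data known. Lists are described by counts and have no test of their own. Of 29771 probes with a RefSeq accession 28328 were found in the GRCm38.p6 table, 1359 with another symbol than that of the array, whose names are kept. Probe positions are those of the array's design in NCBI37. The fit was tested on simulated data for 15244 genes with a small share of them changed, where 2% of the calls were false. Far more genes were called in the data, so that share is no estimate for this fit. The alternatives were the values, normalization, background, filter, probe choice, arrays, block, prior, test, threshold and each array left out. Some genes of the lists are not reported here.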

Additional observations from a re-analysis of the deposited data

Results flagged for a closer look

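The change from naïve to TFH cells was set against that from Treg to TFR cells, the corresponding step in Foxp3 expressing cells, in 1 limma contrast over the 8 arrays. The gates differed, with TFH cells sorted as GL7+ and TFR cells as GL7+/-, so GL7 and Foxp3 cannot be told apart on either day. It called 1218 genes (7.99% of those tested). The 5 largest gaps in each direction among genes called in both tests follow, each as the change from Treg to TFR minus the change from naïve to TFH on the log2 scale. At d25 the arrays of Treg and TFR cells lay on another slide than those of naïve and TFH cells, so slide and Foxp3 cannot be told apart at that day.

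The factor Ascl2 was at least 725-fold higher in TFH than in naïve cells and went from 357 and 490 RU in Treg to 3578 and 6458 RU in TFR cells (gap -6.34 ± 0.33, adjusted p = 0.0035). Plagl1 was already at 4486 and 5022 RU in Treg cells and had 3016 and 5793 RU in TFR cells (gap -6.05 ± 0.77, adjusted p = 0.0186). The amino acid carrier Slc43a1 (gap -5.99 ± 0.22, adjusted p = 0.00302), Dbh (gap -5.96 ± 0.51, adjusted p = 0.00831) and the keratin Krt6b (gap -5.72 ± 0.55, adjusted p = 0.0102) rose more in TFH cells. In the opposite direction, carbonic anhydrase Car2 had 875 and 1089 RU in naïve and 42 and 188 RU in TFH cells and 208 and 304 RU in Treg and 1037 and 846 RU in TFR cells (gap 5.35 ± 0.82, adjusted p = 0.0277). Pdlim4 was at 582 and 494 RU in Treg cells before the step and 228 and 289 RU in TFR cells (gap 4.97 ± 0.35, adjusted p = 0.00588). Lrrc75b (gap 4.61 ± 0.46, adjusted p = 0.0114) had 140 and 95 RU in Treg cells. The acetyl-CoA carboxylase Acacb (gap 4.29 ± 0.61, adjusted p = 0.0234) fell from 262 and 202 RU in naïve to 27 and 46 RU in TFH cells and had 147 and 69 RU in Treg and 354 and 258 RU in TFR cells. Amz1, a metallopeptidase, fell from 1447 and 1301 RU to 136 and 109 RU in TFH cells and had 158 and 73 RU in Treg and 124 and 186 RU in TFR cells (gap 3.99 ± 0.55, adjusted p = 0.0221).

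For 8 of these 10 genes at least 1 of the naïve or TFH arrays was not well above background, so the fitted gap depends on the floor of the table and is no bound. With slide in place of day as the block 8 of the 10 were called, without the filter on dim probes 3, and without 1 array between 4 and 9. Ascl2, Slc43a1 and Pdlim4 kept the call whichever of the 8 arrays was left out. Why these genes differ was not tested.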

How the results depend on the processing

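The processing changed counts of calls and, in part, their balance. Against 7322 calls (3317 higher, 4005 lower), a fit of the 4 TFH and naïve arrays alone called 3953 (2050 higher, 1903 lower). The Tukey test over the 4 cell types without day, which the study's methods name, gave 4653 at an unadjusted p below 0.05 (2310 of them lower) and 2280 after Benjamini-Hochberg adjustment (1291 higher, 989 lower), and a required log2 difference of at least 1 left 3006 (1752 higher, 1254 lower). Leaving out 1 array gave 4414 to 6447 calls, 2281 to 3014 of them higher and 2133 to 3447 lower, the fewest without a naïve array. The contrast with Treg and TFR cells called 1218 genes, 434 without the filter on dim probes, 581 with slide in place of day, and 187 to 956 without 1 array. Values rebuilt from the spots, scaling to the 75th percentile without quantile normalization, normexp correction, no filter, a filter on all 4 arrays, the mean of all probes, slide as block and a trended robust prior moved the number of calls for TFH against naïve cells to between 5472 and 7773, and the share of calls that were higher from 45.3% to between 40.1% (75th percentile scaling) and 47.4% (no filter). The share was 51.9% with 4 arrays, 58.3% under the required difference, 56.6% with the adjusted Tukey test, and 51.7% and 50% without the naïve array of d12 or d25. Of the 64 gene lists 20 had more calls in the opposite direction under at least 1 alternative, 4 of them under another scaling. This was most frequent for MHC genes (11 alternatives), neuronal genes (10), selectin and sialic acid enzymes (9), mitochondrial ribosomal proteins (9), ion channels (8) and nuclear receptors (7).

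Day, which pairs 1 TFH with 1 naïve array, is the replicate block. Without the block 5523 genes were called for TFH against naïve cells and 657 for the contrast with Treg and TFR cells.

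Of the 277 named calls 189 held under every alternative that gave a value, and 88 were lost at least once, 82 of them with the adjusted Tukey test, 32 under the required log2 difference, 26 with 4 arrays and 27 without the filter. Calls lost without at least 1 of the 8 arrays were those of B2m, Car2, Ccnd2, Ccnd3, Ccr6, Cdk1, Cp, Eef2, Eif4ebp1, Foxp1, Gem, Gimap5, H2-K1, Hba-a1, Hba-a2, Hbb-b1, Il2, Il6st, Jun, Kif23, Lck, Maats1, Ncl, Ppap2a, Prdm1, Slc7a5, Tfrc and Zbtb16. Called genes that turned were B2m (-0.51), H2-K1 (-0.38) and Lck (-0.023), all with 75th percentile scaling.

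Genes without a call also changed sign. With 75th percentile scaling this held for Actb (-0.44), Hspa8 (-0.35) and Notch1 (0.048), with normexp for Cd79a (0.021) and Notch1 (0.030), and with the mean of all probes for Hspa8 (-0.27) and Stat3 (-0.019). Without 1 array the difference ran for Cd3e from -0.28 to 0.031, for Cd40lg from -0.078 to 0.65, for Cd79a from -1.18 to 1.06, for Cd84 from -0.065 to 0.13, for Hspa8 from -0.12 to 0.18, for Jchain from -1.0 to 0.17, for Ms4a1 from -1.50 to 1.04, for Notch1 from -0.61 to 0.53, for Pcna from -0.10 to 0.027, for Rel from -0.13 to 0.33, for Rgs2 from -0.23 to 0.44, for Socs3 from -1.65 to 0.065, for Stat3 from -0.15 to 0.46 and for Tcf7 from -0.13 to 0.055.

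The limits of the data lie in their number. With 1 array per cell type and day, 3 residual degrees of freedom support every p value, and pools of mice, not single animals, were compared. In simulated data 52.24% of changes of 1 and 88.73% of changes of 2 on the log2 scale were found, and 0% of changes of 0.5. Only a small share of genes was changed there, whereas 48% were called here, so these shares do not carry over to this fit. A missing call is in any case no sign of equal levels. Probes not well above background give bounds only, and a probe's level cannot be set against that of another gene.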

Other observations

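Genes around NF-κB, the factor family of inflammatory and survival signals, were mixed. Of 33 tested 11 rose and 7 fell. The subunit gene Nfkb1 rose from 1201 and 1383 to 1911 and 2801 RU (0.84 ± 0.12, adjusted p = 0.00466), the paracaspase Malt1 from 5395 and 6288 to 12845 and 15547 RU (1.28 ± 0.15, adjusted p = 0.0026), and the nuclear inhibitor Nfkbid from 14086 and 14227 to 37466 and 44202 RU (1.52 ± 0.11, adjusted p = 0.00068). Several kinases and adaptors that lead to NF-κB fell, among them Ikbkb (-1.0 ± 0.13), Map3k14 or NIK (-1.09 ± 0.15) and the ubiquitin ligase Traf6 (-1.11 ± 0.15). Rel was not called (0.10 ± 0.15, adjusted p = 0.603), since the TFH arrays lay on both sides of the naïve ones (4721 and 5892 RU in naïve and 4226 and 7568 RU in TFH cells).

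Among heat shock genes 9 of 41 rose (21.95%) and 13 fell (31.7%), near the 21.8% and 26.3% of all genes. This balance turned under 4 alternatives. Fkbp5, a cochaperone of steroid receptors, rose from 4728 and 4669 to 13014 and 16798 RU (1.65 ± 0.12, adjusted p = 0.000604), and the main cytosolic chaperone Hspa8 was not called (0.03 ± 0.11, adjusted p = 0.835). In the hypoxia list, with 11 of 24 higher and 3 lower, Stc2, a secreted glycoprotein, had 20 and 27 RU in naïve cells and 2035 and 2939 RU in TFH cells and was at least 34.3-fold higher. Txnip, which binds thioredoxin and limits glucose uptake, fell from 26471 and 29642 to 7555 and 10500 RU (-1.65 ± 0.12, adjusted p = 0.000653).

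The naïve gate held no marker against innate-like T cells. Of 5 genes of such cells tested 3 were higher and 1 lower in TFH cells, but 4 of the 5 passed the filter only through TFH cells. The 1 gene well above background on all 4 arrays was lower, and the balance turned under 3 alternatives. Zbtb16 (PLZF), the factor of NKT cells, had 72 and 62 RU in naïve and 175 and 133 RU in TFH cells and was at least 2.14-fold higher, and Klrb1a, an NK cell receptor, had 91 and 49 RU in naïve and 578 and 2532 RU in TFH cells. Sox13, a factor of γδ T cells, fell from 1009 and 866 to 477 and 441 RU (-1.03 ± 0.12, adjusted p = 0.0024). Jchain, the joining chain of secreted antibodies, varied between the days in both cell types (6809 and 1181 RU in naïve and 2999 and 1501 RU in TFH cells) and was not called (-0.42 ± 0.61, adjusted p = 0.602). The hemoglobin genes Hba-a2 (-1.05 ± 0.30) and Hbb-b1 (-1.01 ± 0.30) fell, both calls being lost in 5 of the 8 fits without 1 array, and 3 of 8 stromal and endothelial genes fell while 1 rose.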
